A study of Mus musculus with 6 samples.

Results

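The 10 genes described here encode subunits of the transcription factor AP-1 and other immediate early factors: Fos, Fosb, Fosl1, Fosl2, Jun, Junb, Jund, Egr1, Ier2 and Atf3. They are a list of gene names, out of 54446 genes listed in each library, that was drawn up with earlier results of these data known, and all 10 passed the filter on low counts. They were followed in 6 single-cell libraries made with a 5′ droplet kit: 2 of GL261, an established mouse glioma line grown in FCS-containing differentiation medium, and 4 of GL261-GSCs, glioblastoma stem cells derived from that line and grown in defined GSC medium. FCS is fetal calf serum. All libraries carry the genotype of the 1 line, no drug or genetic change is labelled in either group, and both groups were dissociated with Accutase, a cell-detaching enzyme mix, and treated with a detergent buffer. The labels name cells or nuclei without saying which were loaded. Medium, growth form and the group label changed together, so that they cannot be told apart. Nothing states that the replicates came from separate cultures, and the p-values below then measure only the spread between these libraries, which may be technical.

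AP-1 is a pair of leucine zipper proteins: a Jun protein binds a second Jun protein or a Fos protein, and the pair binds DNA at the motif TGACTCA. Fos, Fosb, Jun, Junb, Egr1, Ier2 and Atf3 are immediate early genes, transcribed within minutes of a stimulus such as serum, a growth factor or stress, without new protein being made first. Fosl1 (also called FRA1) and Fosl2 (FRA2) are induced later and more lastingly, and Jund is transcribed steadily in most cell types. In glioma, Fosl1 is known as a factor of the mesenchymal state. Cell dissociation is itself a known inducer of immediate early genes.

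The windows of 250 bases before the RefSeq gene start are shown for 5 members, since short motifs for inducible transcription lie close to these starts. RefSeq windows (GRCm38.p6) matched 7 of the 10 members. The Fos and Jun starts were the same in RefSeq and GENCODE M21, those of Fosb and Junb lay 6 and 30 bases apart, and the RefSeq start of Fosl2 lay 671 bases downstream of the GENCODE start, so that its window lies inside the GENCODE gene. The RefSeq starts of Jund and Atf3 lay 1210 and 34706 bases from the GENCODE starts, and their windows are not printed. Each sequence runs 5′ to 3′ on the gene's strand. Capitals mark matches of TGACGT, TGACNTCA or TGACTCA. The Fos window is chr12:85473640-85473889 (+), Jun chr4:95052223-95052472 (−), Fosb chr7:19310046-19310295 (−), Fosl2 chr5:32136222-32136471 (+) and Junb chr8:84978749-84978998 (−).
Fos: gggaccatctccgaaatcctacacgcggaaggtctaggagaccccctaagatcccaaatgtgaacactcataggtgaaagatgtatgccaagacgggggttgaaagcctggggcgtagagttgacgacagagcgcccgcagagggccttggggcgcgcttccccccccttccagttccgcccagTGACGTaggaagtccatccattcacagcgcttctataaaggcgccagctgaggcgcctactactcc
Jun: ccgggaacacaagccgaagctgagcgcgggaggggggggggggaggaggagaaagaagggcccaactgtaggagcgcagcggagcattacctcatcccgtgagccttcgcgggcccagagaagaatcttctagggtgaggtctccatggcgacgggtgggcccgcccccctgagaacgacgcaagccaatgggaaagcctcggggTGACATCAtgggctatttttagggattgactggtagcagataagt
Fosb: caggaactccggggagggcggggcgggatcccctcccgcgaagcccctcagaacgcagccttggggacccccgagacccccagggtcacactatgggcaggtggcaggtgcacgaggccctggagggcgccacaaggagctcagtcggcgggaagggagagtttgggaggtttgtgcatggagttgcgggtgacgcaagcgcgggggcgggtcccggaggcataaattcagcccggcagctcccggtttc
Fosl2: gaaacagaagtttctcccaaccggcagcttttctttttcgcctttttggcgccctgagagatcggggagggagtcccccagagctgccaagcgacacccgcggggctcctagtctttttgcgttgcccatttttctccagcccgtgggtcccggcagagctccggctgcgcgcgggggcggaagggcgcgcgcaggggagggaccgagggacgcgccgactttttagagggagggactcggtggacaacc
Junb: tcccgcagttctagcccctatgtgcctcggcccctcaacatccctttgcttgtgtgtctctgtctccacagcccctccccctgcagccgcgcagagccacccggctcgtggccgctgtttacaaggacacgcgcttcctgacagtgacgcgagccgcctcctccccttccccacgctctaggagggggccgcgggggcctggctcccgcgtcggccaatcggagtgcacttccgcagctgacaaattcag

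The Fos window held TGACGT, the core of a cyclic AMP response element, 66 to 61 bases before the start, and TATAAA 33 to 28 bases before it. The Jun window held TGACATCA, a variant of the AP-1 motif, 45 to 38 bases before the start, and CCAAT 65 to 61 bases before it. Junb had CCAAT 36 to 32 bases before its start. The Egr motif GCGGGGGCG stood 50 to 42 bases before the start of Fosb and 79 to 71 bases before that of Fosl2. All 7 motifs were searched on both strands. TGACGT can lie within a match of TGACNTCA, and such a site counts under both. Among all 32851 windows of the same length, 6.47% held TGACGT, 7.49% TGACNTCA, 4.46% TGACTCA, 12.4% TATAAA, 33.8% CCAAT, 2.57% GCGGGGGCG and 1.47% the CArG box, the motif of serum response factor. These matches describe letters only.

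In GRCm38, Fos lies at chr12:85473890-85477273 (+), Fosb at chr7:19302696-19310051 (−), Fosl1 at chr19:5447547-5455946 (+) and Fosl2 at chr5:32135801-32157842 (+). Jun lies at chr4:95049034-95052222 (−), Junb at chr8:84974484-84978718 (−), Jund at chr8:70698949-70700616 (+) and Ier2 at chr8:84661331-84662852 (−). Egr1 lies at chr18:34859823-34864984 (+) and Atf3 at chr1:191170296-191218039 (−). Jun, Jund and Ier2 are annotated as single-exon genes. Values are UMIs (unique molecular identifiers) of whole genes, so that isoforms such as those of Fosb are not separated.

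Total UMIs per library ran from 80899005 to 121309232, and 33320530 to 79472306 of them lay in the 4264 to 7275 called cells of a library. GL261-GSCs replicate 4 was the shallowest, with a median of 6670 UMIs per cell against 10638 to 15478 (rounded) in the other 5 libraries. Pairs of libraries shared 32 to 59 called barcodes, where chance gives 26.1 to 57.9. Of 18439 genes tested, 5514 passed an adjusted p of 0.05 (29.9%), 2920 higher in GL261-GSCs and 2594 lower. With library size alone as the scaling, the split was 3491 to 2034 and the median change over all genes (log2) moved from 0.04 to 0.18. The glial markers Sox2, Nes and Vim were found in all libraries. Olig2 had 62 UMIs in GL261 replicate 1 and 1 in replicate 2, against 142204 in GL261-GSCs. Gfap had 165 in GL261 and 3 in GL261-GSCs. All 5 of these markers passed, against 29.9% of all genes tested. Sox2 and Olig2 were higher in GL261-GSCs, and Nes, Vim and Gfap lower.

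The Fos and Jun families shifted in makeup between the groups, with Fos and Jund higher and Fosl1, Fosl2, Fosb and Junb lower in GL261-GSCs. The summed level of all 10 genes was 1166 and 1007 CPM in GL261, and 1101, 951, 961 and 903 CPM in GL261-GSCs replicates 1 to 4, with overlap between the groups. CPM here are counts of UMIs divided by TMM-scaled library sizes. By edgeR's quasi-likelihood test with Benjamini-Hochberg adjustment over all genes, Fos and Jund were higher in GL261-GSCs, which is 2 of 10 against 15.8% of all genes tested. Fosb, Fosl1, Fosl2 and Junb were lower, which is 4 of 10 against 14.1%. Jun, Egr1, Ier2 and Atf3 did not pass. In CPM, 7 of the 10 genes had groups with no overlap between libraries, against 56.7% of all genes tested.

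**Figure D1:**
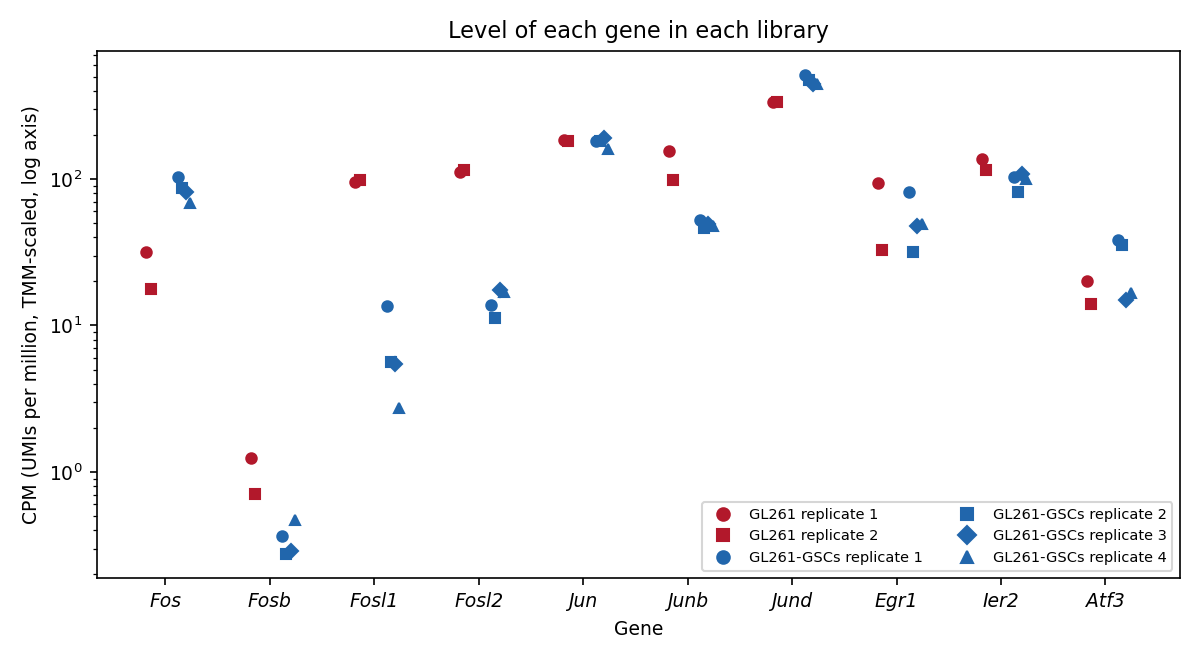
Level of each gene in each library, in CPM on a log axis, with 1 point per library (GL261 red, GL261-GSCs blue). Fos lies higher and Fosl1, Fosl2 and Junb lower in all 4 GL261-GSCs libraries, while the points of Jun, Egr1 and Atf3 mix.

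The 5 glial and glioma markers summed to 15305 and 16549 CPM in GL261 and 5425 to 6165 CPM in GL261-GSCs, mostly Vim. Markers of other cell types moved with the groups in part. The 8 microglia markers summed to 12.9 and 13.1 CPM in GL261 and 0.192 to 0.364 CPM in GL261-GSCs, nearly all of it Csf1r, with C1qa at 0 in all libraries. The 4 fibroblast and pericyte markers summed to 252 and 287 CPM in GL261, mostly Col1a1, and 11.0 to 26.8 CPM in GL261-GSCs. The 4 neuron markers summed to 0.281 and 0.215 CPM in GL261 and 1.24, 12.7, 51.8 and 78.4 CPM in GL261-GSCs replicates 1 to 4, mostly Syt1, with Rbfox3 at 0. Endothelial markers summed to at most 1.63 CPM, with Cldn5 at 0, and erythroid markers to at most 0.0444 CPM, with Hbb-bs at 0. The nuclear RNAs Malat1 and Neat1 summed to 5012 and 5028 CPM in GL261 and 3080, 3559, 4755 and 7811 CPM in GL261-GSCs. Their part in the results of Fos, Fosl1, Fosl2 and Junb was not tested.

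Fos, the founding member of the family and a potent activating partner of Jun, was 31.5 and 17.7 CPM in GL261 replicates 1 and 2. In GL261-GSCs replicates 1 to 4 it was 104, 86.6, 81.2 and 68.8 CPM. The lowest GL261-GSCs library was above the highest GL261 library. The means were 85.1 ± 14.5 (SD, n = 4) and 24.6 ± 9.71 (SD, n = 2). Fos was 3.46-fold higher in GL261-GSCs (log2 fold change 1.79, SE 0.28, 95% interval 1.12 to 2.46, edgeR adjusted p = 0.00455). In sums over cells, fewer cells with a transcript and less RNA per cell cannot be told apart. The rise was called in all 17 alternatives run.

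Fosl1 went the other way, and over a wider range. It was 94.8 and 97.9 CPM in GL261, and 13.5, 5.63, 5.43 and 2.72 CPM in GL261-GSCs replicates 1 to 4. The GL261 libraries were close to each other, whereas GL261-GSCs replicate 1 stood highest and replicate 4 lowest of their group. With means of 96.4 ± 2.19 (SD, n = 2) and 6.81 ± 4.64 (SD, n = 4), Fosl1 was 14.1-fold lower in GL261-GSCs (log2 fold change -3.82, SE 0.53, interval -5.08 to -2.55, edgeR adjusted p = 0.00281). The gene overlaps Ccdc85b on the other strand, which was also lower (log2 fold change -1.05, edgeR adjusted p = 0.00256). Whether counting used strand is not known from the labels or headers, so reads from both genes cannot be told apart where they overlap.

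Fosl2, the nearest relative of Fosl1, was 111 and 115 CPM in GL261 and 13.7, 11.2, 17.4 and 17.0 CPM in GL261-GSCs. Both groups were tight and far apart. The means of 113 ± 2.70 (SD, n = 2) and 14.9 ± 2.93 (SD, n = 4) gave a 7.63-fold lower level (log2 fold change -2.93, SE 0.19, interval -3.39 to -2.48, edgeR adjusted p = 0.000167). Fosl1 and Fosl2 were both called lower in all 17 alternatives. Their order within GL261-GSCs differed, since replicate 1 was the highest for Fosl1 and replicate 3 for Fosl2.

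Fosb, whose product also pairs with Jun proteins, was the lowest of the 10 in UMIs. It was 1.24 and 0.712 CPM in GL261, and 0.364, 0.276, 0.288 and 0.467 CPM in GL261-GSCs, from 127 and 84 UMIs in all. The log2 fold change was -1.51 (SE 0.36, interval -2.36 to -0.66, edgeR adjusted p = 0.0206). The call was lost without GL261 replicate 1 (adjusted p = 0.212, log2 fold change -1.05), GL261 replicate 2 (adjusted p = 0.052, log2 fold change -1.85) or GL261-GSCs replicate 3 (adjusted p = 0.057, log2 fold change -1.42) in the same edgeR test.

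The opposite movement of Fos and its relatives can be put as a ratio of UMIs within each library. Per Fosl1 UMI there were 0.332 and 0.181 Fos UMIs in GL261, and 7.70, 15.4, 14.95 and 25.3 in GL261-GSCs. Per Fosl2 UMI there were 0.283 and 0.154 Fos UMIs in GL261, and 7.57, 7.71, 4.66 and 4.04 in GL261-GSCs. Fos was thus the smaller count in both GL261 libraries and the larger in all 4 GL261-GSCs libraries. UMIs of different genes are not corrected for capture or length, so the ratio is read between libraries only.

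Jun, which like Junb and Jund can partner the Fos proteins on DNA, was 185 and 182 CPM in GL261 and 181, 181, 189 and 159 CPM in GL261-GSCs. The groups overlapped. The log2 fold change of -0.05 (SE 0.12, interval -0.34 to 0.24, edgeR adjusted p = 0.796) did not pass, and its interval leaves room for a change of 0.34 on the log2 scale. Its sign turned with library size alone as the scaling (0.10) and without GL261-GSCs replicate 4 (0.03). Junos, the transcript on the other strand of Jun, stayed under 1 CPM in every library.

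Junb, a Jun protein that activates weakly and can oppose Jun, was 155 and 98.7 CPM in GL261 and 52.8, 46.3, 49.2 and 47.7 CPM in GL261-GSCs. The GL261 libraries differed from each other, and both lay above every GL261-GSCs library. The means were 127 ± 39.5 (SD, n = 2) and 49.0 ± 2.80 (SD, n = 4). Junb was 2.59-fold lower in GL261-GSCs (log2 fold change -1.37, SE 0.18, interval -1.80 to -0.94, edgeR adjusted p = 0.00225). The call held in all 17 alternatives. Prdx2, a peroxiredoxin gene on the other strand of Junb, had a log2 fold change of -0.59 (edgeR adjusted p = 0.0834).

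Jund, the steadily transcribed Jun protein, was 337 and 333 CPM in GL261 and 514, 471, 446 and 442 CPM in GL261-GSCs. The groups did not overlap, although the step was small. The means of 335 ± 3.14 (SD, n = 2) and 468 ± 33.3 (SD, n = 4) differed by 0.48 on the log2 scale (SE 0.13, interval 0.18 to 0.79, edgeR adjusted p = 0.0306). The edgeR call was lost with no filter on low counts (adjusted p = 0.0918), with every barcode of at least 1000 UMIs (adjusted p = 0.0645), and without GL261 replicate 1 (adjusted p = 0.20), GL261 replicate 2 (0.23), GL261-GSCs replicate 2 (0.0537) or replicate 3 (0.054). In these 6 fits its log2 fold change was 0.44 to 0.51, about as large. Within libraries there were 2.18 and 3.37 Jund UMIs per Junb UMI in GL261, and 9.74, 10.2, 9.06 and 9.28 in GL261-GSCs.

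**Figure D2:**
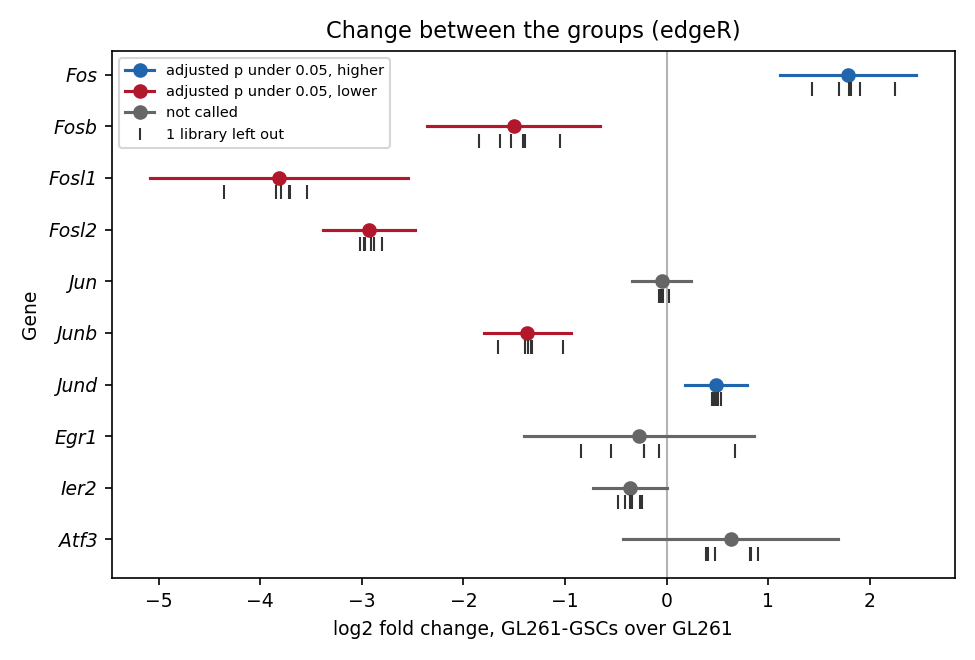
Log2 fold change of each gene, GL261-GSCs over GL261, with its 95% interval (edgeR). Ticks under each bar give the value with 1 library left out. Fosl1 lies at -3.82 and Fos at 1.79, and the ticks of Egr1 spread from -0.84 to 0.68.

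Egr1, a zinc finger factor induced through the same kinase cascade as Fos, did not move with Fos between the groups. It was 94.0 and 32.6 CPM in GL261 and 80.9, 31.9, 48.1 and 49.2 CPM in GL261-GSCs. Each group held a library above 80 CPM and a library near 32 CPM. The log2 fold change was -0.27 (SE 0.48, interval -1.40 to 0.86, edgeR adjusted p = 0.699), and it turned to 0.68 without GL261 replicate 1. An interval this wide does not show that the groups are alike.

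Ier2, a small nuclear immediate early protein, was 136 and 115 CPM in GL261 and 103, 81.6, 109 and 99.4 CPM in GL261-GSCs. All 4 GL261-GSCs libraries lay below both GL261 libraries. The log2 fold change of -0.36 (SE 0.15, interval -0.72 to 0.01) did not pass the edgeR test (adjusted p = 0.124).

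Atf3, a stress-induced factor that binds Jun proteins and acts mostly as a repressor, was 20.0 and 14.0 CPM in GL261. It was 38.3 and 35.4 CPM in GL261-GSCs replicates 1 and 2, but 14.9 and 16.7 CPM in replicates 3 and 4. The last pair lay within the range of GL261. The log2 fold change of 0.63 (SE 0.45, interval -0.43 to 1.69, edgeR adjusted p = 0.322) did not pass.

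Shares of cells with at least 1 UMI were compared after each cell was thinned to 2000 UMIs. No called cell had to be left out. With 15 splits of 6 libraries, the smallest p of the exact 2-sided permutation test is 0.133 (0.190 after Benjamini-Hochberg adjustment over the 10 genes), so no share could pass 0.05. Of the 10 genes, 7 had groups with no overlap between libraries, against 49.1% of all genes tested, and each of these 7 had the smallest p. Among all genes tested, shares without overlap were higher in GL261-GSCs for 31% and lower for 18.1%. In CPM the corresponding values were 28.7% and 28%, so shares leaned more to the higher side.

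Fos was found in 5.49% and 2.999% of GL261 cells, and in 16.7%, 14.6%, 14.1% and 13.5% of GL261-GSCs cells. Fosl1 was found in 14.996% and 15.2% of GL261 cells against 2.44%, 0.988%, 1.10% and 0.643% in GL261-GSCs. Fosl2 was found in 17.9% and 18.1% against 3.19%, 2.57%, 3.63% and 4.43%. For these genes the shares followed the CPM. Junb shares were 20.9% and 15.4% against 7.71% to 9.17%, and Jund shares 40.3% and 40.9% against 53.3% to 58.8%. Without thinning, Fos was in 12.5% to 21.8% of GL261 cells and 30.9% to 54.2% of GL261-GSCs cells, and Fosl1 in 58.3% to 60.8% against 1.80% to 16.2%.

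Jun was found in 24.5% of cells in both GL261 libraries and in 27.0% to 29.9% in GL261-GSCs, while its CPM was not higher there. No order is read from that share, nor from Egr1 (8.05% and 3.74% against 5.20% to 12.01%). Ier2 shares were 19.6% and 17.95% in GL261 against 14.2% to 17.3%, Atf3 shares 3.04% and 2.16% against 2.63% to 6.99%, and Fosb shares 0.374% and 0.120% against 0.0170% to 0.133%. Atf3 and Fosb overlapped between the groups. In GL261-GSCs, 1 thinned UMI in a few cells sets the Fosb share.

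Droplets without a cell also hold RNA. Barcodes of 100 to under 1000 UMIs gave the estimate: free RNA alone would give 2.47% of cells or fewer a UMI of any member other than Jund, and 1.74% to 10.1% a UMI of Jund. For Fos, Jun and Jund the highest estimate was in GL261-GSCs replicate 4. Every Fos and Fosl2 share lay above its free RNA estimate. In GL261-GSCs replicate 4 the Fos share was 13.5% and the estimate 1.69%, and in GL261 replicate 2 they were 2.999% and 0.135%. For Fosl1 in GL261-GSCs replicate 4 the share was 0.643% and the estimate 0.0796%. No cell type that should lack these genes was present to give a second background.

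**Figure D3:**
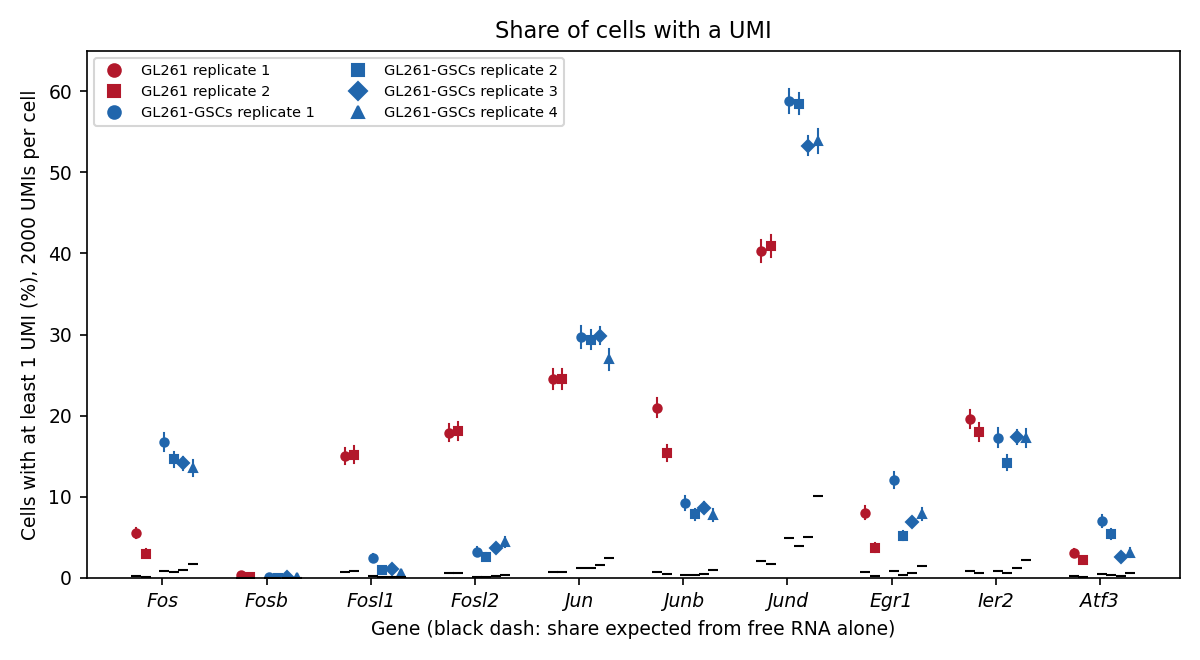
Percent of cells with at least 1 UMI of each gene at 2000 UMIs per cell, 1 point per library with its exact 95% binomial interval, which covers counting error only. Black dashes give the share expected from free RNA alone. Fos lies at 2.999% and 5.49% in GL261 and at 13.5% to 16.7% in GL261-GSCs.

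The genes also differed in how their UMIs were spread over the cells of a library. The Fano factor, the variance of the thinned count over its mean, is about 1 for counts that scatter by chance. For Egr1 it was 8.86 and 10.7 in GL261 and 1.91 to 2.39 in GL261-GSCs, and single GL261 cells held up to 39 and 44 of its UMIs out of 2000. Fosl1 was the contrast, at 1.07 and 1.06 in GL261 and 1.03 to 1.08 in GL261-GSCs. Fos lay between, at 1.27 to 1.70 over all libraries. Egr1 transcripts were thus concentrated in few GL261 cells, whereas those of Fosl1 were scattered over many.

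The 1% of cells with the largest Egr1 share, 43 to 73 cells per library, were looked at further. They held 47.9% and 42.6% of all Egr1 UMIs in GL261 and 14.6%, 28.3%, 22.1% and 25.3% in GL261-GSCs. These cells were picked by Egr1, so that its own excess is no finding, and the values of the other genes have no test. Fos, as a share of all UMIs, was 15.9 and 9.92 times that of the remaining cells in GL261, and 4.31 to 5.52 times in GL261-GSCs. Junb was at 16.5 and 4.48 times in GL261 and 3.76 to 15.6 times in GL261-GSCs, and Ier2 at 3.49 to 6.20 times over all libraries. Atf3 reached 52.9 times in GL261 replicate 1, with 410 of its UMIs in 48 cells, and 3.51 to 13.5 times elsewhere.

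Fosl1, by contrast, was at 1.52 and 1.67 times in GL261 and 0.499 to 3.80 times in GL261-GSCs, and Jund at 1.08 to 2.52 times. Cells rich in Egr1 were thus richer in Fos, Junb, Ier2 and Atf3 in all 6 libraries, with smaller ratios for Fosl1, Fosl2, Jun and Jund in each of them. With the 1% of cells left out of the edgeR comparison, the Egr1 log2 fold change turned from -0.27 to 0.29 and did not pass either way. These cells were picked by Egr1 and held more of its UMIs in GL261, so leaving them out raises that value by construction. Fos, Fosl1, Fosl2 and Junb kept their calls.

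**Figure D4:**
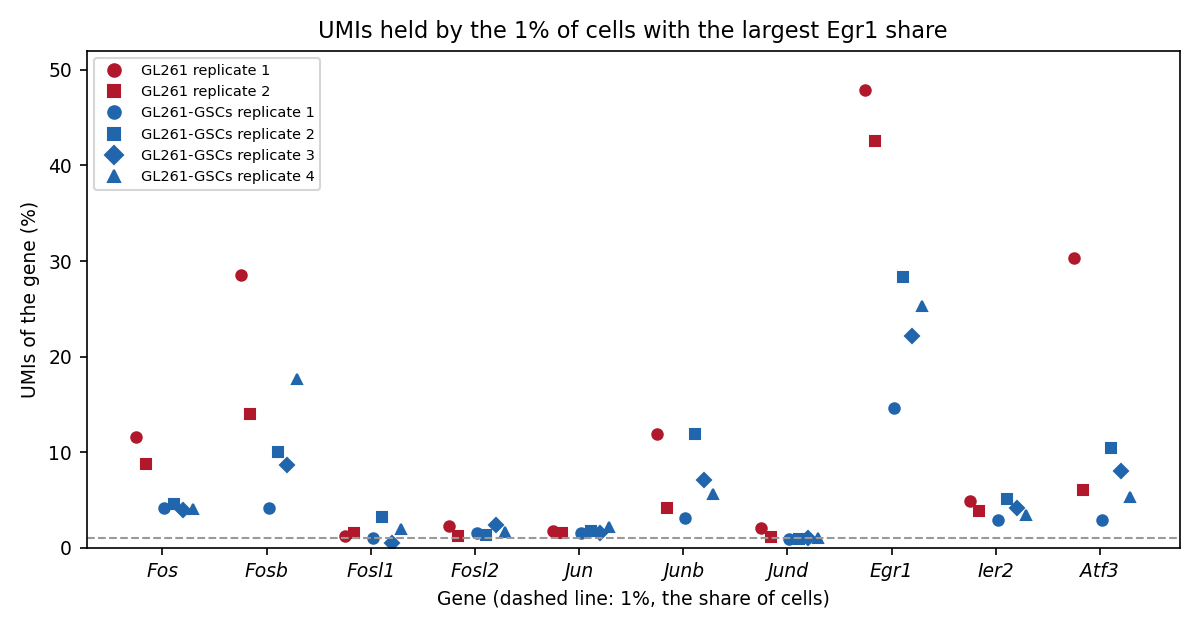
Percent of each gene's UMIs held by the 1% of cells with the largest Egr1 share, 1 point per library, with a dashed line at 1%. Egr1 lies at 14.6% to 47.9%, Fos at 3.98% to 11.6% and Fosl1 at 0.461% to 3.19%.

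Pearson correlations across the cells of a library, on the log of thinned counts, were largest for pairs with Egr1. They share library and depth, are weak, and are given as a description without a test. The mean r over the 2 GL261 libraries was 0.22 for Fos and Egr1, 0.21 for Junb and Egr1, 0.20 for Egr1 and Atf3, and 0.18 for Egr1 and Ier2. Over the 4 GL261-GSCs libraries it was 0.15 for Junb and Egr1, 0.15 for Fos and Egr1, and 0.15 for Egr1 and Ier2. Egr1 and Atf3 had 0.08 in GL261-GSCs, below the 0.11 of Junb and Atf3, a pair without Egr1. Fosl1 and Fosl2, which were both high in GL261, had a mean r of 0.01 across GL261 cells. Fos and Jund, which were both higher in GL261-GSCs, had a mean r of 0.02 there.

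**Figure D5:**
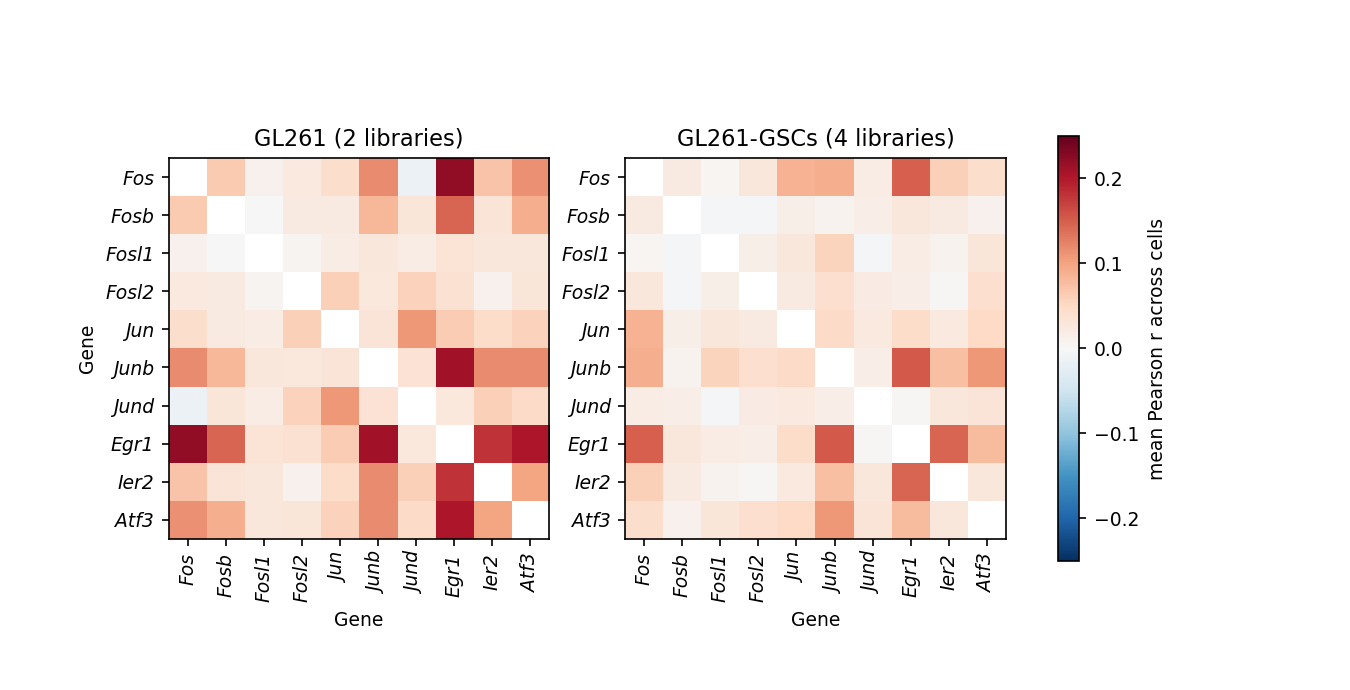
Mean Pearson r across cells for each pair of genes, left over 2 GL261 and right over 4 GL261-GSCs libraries, on 1 colour scale. The pairs of Egr1 with Fos, Junb, Ier2 and Atf3 are the darkest on the left, with Fos and Egr1 at 0.22.

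Cells with UMIs of 4 or more of the 10 genes at 2000 UMIs made up 6.68% and 4.82% of GL261 and 5.89%, 3.15%, 3.52% and 3.77% of GL261-GSCs. Between 16.4% and 23.5% of cells of a library had none. The groups overlapped in both shares, and the median cell held 1 of the 10 in every library.

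Levels were split by the cells' count of G2/M genes, which mark late cell cycle, and the ratios compare cells with at least 5 such UMIs to cells with at most 1. Fos was at 0.555 and 0.563 in GL261 and 0.576 to 0.771 in GL261-GSCs, and Fosl2 at 0.490 to 0.641 over all libraries. Egr1 was at 1.36 and 1.56 in GL261 and 1.39 to 2.28 in GL261-GSCs. In all 6 libraries, then, Fos and Fosl2 were lower and Egr1 higher in G2/M-rich cells. Being lower there was not particular to Fos and Fosl2. Jun (0.749 to 0.959), Junb (0.586 to 0.865), Jund (0.726 to 0.901) and Atf3 (0.500 to 0.979) were also below 1 in all 6. Fosl1 was at 1.32 and 1.35 in GL261, yet at 0.837, 0.734, 0.800 and 0.766 in GL261-GSCs, from 34 to 387 UMIs in the G2/M-rich cells. Of the 18 G2/M genes only Kif23, a motor protein of cell division, was called between the groups, against 29.9% of all genes (log2 fold change -0.53, edgeR adjusted p = 0.032). No G2/M gene was called without GL261 replicate 1, GL261 replicate 2 or GL261-GSCs replicate 2, or without the 5% of cells with most UMIs, while 2 were called with a stricter UMI minimum and 4 with the DESeq2 Wald test.

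Depth also moved with Fos within libraries: its share of UMIs was 1.41 to 1.90 times as high in the third of cells with the fewest UMIs as in the third with the most. The corresponding ratio of Fosl1 was 0.721 to 0.855. The part of depth in the Fos result was not tested.

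Other AP-1 and related leucine zipper genes were read from a fixed list. Of 11 genes 10 were tested, 1 was higher and 2 were lower, against 15.8% and 14.1% of all genes. Jdp2, a dimerization partner of Jun that represses, was 75.0 ± 6.53 CPM (SD, n = 2) in GL261 and 27.5 ± 7.28 (SD, n = 4) in GL261-GSCs (log2 fold change -1.45, edgeR adjusted p = 0.00455). Mafk, a small Maf protein, had a log2 fold change of -1.32 (adjusted p = 0.00729) and Atf7, a relative of ATF2, 0.80 (adjusted p = 0.0333). The median of the 10 was -0.49, against 0.04 for all genes. Without GL261 replicate 1 the count of calls was 1, and without GL261 replicate 2 it was 0.

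Other immediate early genes were called lower more often than higher in GL261-GSCs. Of 31 listed, 29 were tested, 16 were lower and 2 higher, against 14.1% and 15.8% of all genes, with a median log2 fold change of -1.05. Cyr61, a secreted matricellular protein and target of serum response factor and YAP, was 1148 ± 19.5 CPM (SD, n = 2) in GL261 and 12.5 ± 2.71 (SD, n = 4) in GL261-GSCs (log2 fold change -6.52, edgeR adjusted p = 2.58e-05). Ctgf, of the same family, had a log2 fold change of -7.93 (adjusted p = 0.000537), and Gadd45b, a stress-response gene, -3.09 (adjusted p = 0.000548). The 2 higher genes, named after their values were seen, were Myc (log2 fold change 1.55) and Btg2, an antiproliferative gene (2.99). The direction of Fos was thus that of 2 and the opposite of 16 of the listed genes that passed. The count of calls was 10 without either GL261 library.

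Among kinases and factors upstream of these genes, 23 were listed and tested. Of these, 4 were higher and 3 lower, against 15.8% and 14.1% of all genes, so the share called was near that of all genes. Their median was -0.21. Mapk10, which encodes the kinase JNK3, was 0.115 ± 0.0684 CPM (SD, n = 2) in GL261, from 15 UMIs, and 7.09 ± 2.03 (SD, n = 4) in GL261-GSCs (log2 fold change 5.91, edgeR adjusted p = 0.000513). Mrtfa, a coactivator of serum response factor, was higher (1.14, adjusted p = 0.00308) and Srf, serum response factor itself, lower (-0.94, adjusted p = 0.00588). Without GL261 replicate 1, GL261 replicate 2 and GL261-GSCs replicate 3, the count of calls was 3, 2 and 4.

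Genes known as AP-1 targets were lower where they passed. Of 20 listed, 14 were tested, 9 were lower and 0 higher, against 14.1% and 15.8% of all genes, with a median of -2.12. Hbegf, an EGF receptor ligand, was 581 ± 68.6 CPM (SD, n = 2) in GL261 and 53.4 ± 9.45 (SD, n = 4) in GL261-GSCs (log2 fold change -3.44, edgeR adjusted p = 9.58e-05). Plaur, the urokinase receptor, had a log2 fold change of -2.79 (edgeR adjusted p = 0.00012). The count was 8 to 10 with 1 library left out. The 5 that did not pass were Spp1, Ccnd1, Hmox1, Lif and Plau, with log2 fold changes from -2.11 to 1.88. Other factors also drive these genes, and the part of any AP-1 subunit was not tested.

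Genes of stress were read beside the members because handling can induce both. Of 12 heat shock genes 9 were tested, and, against 15.8% higher and 14.1% lower among all genes, 1 was higher (Hsp90ab1, a constitutive chaperone, log2 fold change 0.53, edgeR adjusted p = 0.0403) and 1 lower (Dnajb1, a co-chaperone, -0.47, adjusted p = 0.0204). Hspa1a and Hspa1b, the strongly inducible chaperones, had 2 and 2 UMIs in GL261 and 1 and 0 in GL261-GSCs. Neither was tested, and so few UMIs do not show whether these genes were silent or poorly counted. The median log2 fold change of the 9 was -0.19. Summed over the list, the level was 11345 and 11569 CPM in GL261 and 12575 to 14717 CPM in GL261-GSCs, of which Hsp90ab1 made up 5993 and 6136 CPM and 7903 to 9789 CPM. Without Hsp90ab1 the groups overlapped, at 5352 and 5433 CPM in GL261 and 6225, 5936, 4921 and 3619 CPM in GL261-GSCs. The count of calls was 1 with library size alone, with every barcode of at least 1000 UMIs and without GL261-GSCs replicate 2, and it fell to 0 with no filter on low counts, and without GL261 replicate 1, GL261 replicate 2 or GL261-GSCs replicate 3. Their part in the Fos result was not tested.

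Genes of the ATF4 pathway, the amino acid and unfolded protein stress response that can induce Atf3, did not all move one way. Of 9, all tested, 5 were lower and 1 higher, against 14.1% and 15.8% of all genes, with a median of -0.86. Ppp1r15a, which restores translation, had a log2 fold change of -1.77 (edgeR adjusted p = 0.000239), Asns, asparagine synthetase, -1.07 (adjusted p = 0.00372) and Chac1, which degrades glutathione, -1.69 (adjusted p = 0.00855). The higher gene, named after its values were seen, was Ddit4, an inhibitor of mTOR signalling, at 225 ± 1.89 CPM (SD, n = 2) in GL261 and 726 ± 318 (SD, n = 4) in GL261-GSCs (log2 fold change 1.69). Summed over the list, the level was 855 and 889 CPM in GL261 and 880, 825, 1257 and 1398 CPM in GL261-GSCs, with overlap. Without Ddit4 the sums were 631 and 663 CPM in GL261 and 366, 421, 335 and 332 CPM in GL261-GSCs, with no overlap. Ddit4 was left out because it was the gene called higher, so the lower sums follow in part from that choice. They are no separate finding. Without GL261 replicate 1 the count of calls was 2, and without GL261 replicate 2 it was 1. Atf3 itself, with a log2 fold change of 0.63, was not called.

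Across cells, the genes that are no member and correlated best with Atf3 were Ppp1r15a (mean r 0.14) and Ddit3 (0.14) in GL261, and Ddit3 (0.14), Gdf15 (0.13) and Ppp1r15a (0.13) in GL261-GSCs. For Fosl1 they were Hbegf (0.10), Phlda1 (0.09) and Plaur (0.08) in GL261, and Cryab (0.06) and Mt3 (0.06) in GL261-GSCs. For Fos they were Gm26870 (0.13) and Gadd45b (0.09) in GL261, and Gpnmb (0.10) and Syt4 (0.09) in GL261-GSCs. Each r is the mean over the libraries of the group, among 8355 genes ranked in GL261 and 8281 in GL261-GSCs. In counts this sparse such weak correlations are no finding.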

How the data were processed

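Per the file headers, Cell Ranger 4 made the deposited matrices, which hold raw counts of UMIs for each gene in each unfiltered barcode. The genome build was mm10 per the submitters' processing notes. The counting strand and the annotation are not given in the sources used. Coordinates came from GENCODE M21 (GRCm38), which held 99.9% of the gene identifiers without their version. Where a symbol had several identifiers, that with most UMIs stood for it.

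Called cells had at least 500 genes, under 10% mitochondrial UMIs and a UMI minimum of 2060 to 3274, set per library as 10% of the 99th percentile of its 3000 largest barcodes. Doublets were not removed. The library was the replicate: its cells' counts were added up. The sums of all 6 libraries were compared with edgeR 4.0.16 in R 4.3.3 (TMM, filterByExpr, glmQLFTest, 2-sided, Benjamini-Hochberg over all genes). The SE was derived from the log2 fold change and its F statistic, and the interval from that SE; both can look too precise for genes with few UMIs. Alternatives changed the scaling, test, filter, cell calling, depth and libraries, and added the replicate number as a block. DESeq2 1.42.0 and limma-voom 3.58.1 served as other tests. In simulated counts, 200 genes were changed by 2 on the log2 scale. Of these, edgeR recovered 128, limma-voom 127 and the DESeq2 Wald test 155. False calls were 10 of 138 with edgeR, 10 of 137 with limma-voom and 82 of 237 with DESeq2. Exact permutation tests and Clopper-Pearson intervals used scipy 1.17.1.

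The members and lists were chosen with earlier results of these data known. All members were named, and of each other list the 3 called genes with the smallest p. One of these genes is not reported here. For Fos, Fosl1 and Atf3 the best correlated genes seen in at least 2% of cells were ranked, and up to 3 of the top 6 are given. Marker lists were given as sums. One alternative, leaving out the 1% of cells with the largest Egr1 share, was chosen after seeing the data.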

Additional observations from a re-analysis of the deposited data

Results flagged for a closer look

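The share of cells with an Ier2 UMI at 2000 UMIs per cell was 14.2% in GL261-GSCs replicate 2, far from the 17.2% to 17.3% of the other 3 libraries of its group, with a gap of 0.967 of the group's range. It was the only library to stand apart among 28 sets of values screened, where chance gives about 1 in 20.

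The ratio of the Fosl1 level (share of UMIs) between cells with at least 5 and at most 1 G2/M UMIs lay on opposite sides of 1 in the groups. It averaged 1.33 in GL261 (1.32 and 1.35) and 0.784 in GL261-GSCs (0.734 to 0.837). This ratio was picked for that pattern. The G2/M ratios and the depth ratios of all 10 genes were screened for it, and no other showed it. The difference between the groups was not tested.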

How the results depend on the processing

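Fos, Fosl1, Fosl2 and Junb kept direction and call in all 17 alternatives, 6 of which left out 1 library. The count of members called higher was 1 with no filter on low counts and 1 with every barcode of at least 1000 UMIs, and 1 to 2 with 1 library left out. The count of members called lower was 3 to 4 with 1 library left out. Over all genes, 1817 to 6193 were called with 1 library left out, the lowest counts without GL261 replicate 2 (1817) and replicate 1 (1972), where a lone GL261 library is assumed to vary like the others. The log2 fold change of Jun was 0.10 with library size alone, and -0.0750 to 0.0256 with 1 library left out. That of Egr1 was -0.84 to 0.68 with 1 library left out and 0.29 without the 1% of cells with most Egr1. Those cells were picked by Egr1 itself, so the value of 0.29 is raised by the choice. The Egr1 share difference of 2.09 percentage points was -0.0651 to 4.25 with 1 library left out. The cause of the other changes was not tested. With the replicate number as a block, 6512 genes were called, and Ier2 (-0.45, edgeR adjusted p = 0.0326) and Atf3 (1.14, edgeR adjusted p = 0.00527) passed. The lists of other AP-1, heat shock, G2/M and nuclear RNA genes had 6, 4, 4 and 2 calls. Replicate numbers 3 and 4 occur only in GL261-GSCs, so the block fit compares replicates 1 and 2 of the groups alone. It thus changes the libraries that inform the contrast as well as the model. Over all genes, the deviations of same-numbered libraries from their group means had r of -0.03 and 0.04. Differently numbered libraries had r of -0.05 to 0.05. The 2 GL261 libraries deviate as mirror images, so this check is weak and does not exclude a pairing. No label says that a number marks a shared culture or day, so the block is not used in the main fit. Among the members, replicate 1 lay above replicate 2 in both groups for 7 of 10, against 23.6% of all genes tested. These 7 were Fos, Fosb, Junb, Jund, Egr1, Ier2 and Atf3. Cells rich in Egr1 were also richer in Fos, Junb, Ier2 and Atf3, so the 7 are not independent of each other. The count is thus no sign of a pairing by itself, and whether same-numbered libraries share a source was not tested. Depth limits Fosb, with 84 UMIs in GL261-GSCs.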
